A study of Arabidopsis thaliana with 2 samples.

Results

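YUC10 (AT1G48910), TAR1 (AT1G23320) and IPT8 (AT3G19160) are hormone synthesis genes of Arabidopsis thaliana that the study listed as paternally biased. They were followed here in seeds of reciprocal crosses between the accessions Col-0 and Bur-0. What was counted for each gene were reads matched to SNP windows, stretches of 71 nt centred on a base that differs between the accessions, and the windows used were those inside 1 given interval of the TAIR8 genome build for each gene. YUC10 held 4 such windows in chr1:18095349-18097121, TAR1 5 in chr1:8273345-8275323 and IPT8 18 in chr3:6622024-6623106. Together these were 27 of the 147349 windows with at least 1 read match, and they held 103 matches. The intervals came from earlier work on these data, which placed each gene where the summed matches equalled those listed by the study. Their limits and the exons and introns within them were not checked against a TAIR8 annotation here.

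The groups were seeds of Bur-0×Col-0, with a Bur-0 mother and a Col-0 father, and seeds of Col-0×Bur-0, with the parents exchanged, the mother being named first. In both crosses the mothers were emasculated and pollinated by hand, and F1 seeds were harvested 4 days after pollination (DAP) and pooled over many siliques. RNA of whole seeds was sequenced as 1 library per cross on 4 lanes, so each sample held embryo, endosperm and the maternal seed coat, and no spread between plants can be given. In such bulk seeds, fewer cells of a type and less RNA per cell cannot be told apart.

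Auxin is made from tryptophan in a short pathway. Aminotransferases of the TAA/TAR family, to which TAR1 belongs, turn tryptophan into indole-3-pyruvate, and flavin monooxygenases of the YUCCA family, to which YUC10 belongs, turn that intermediate into the auxin indole-3-acetic acid. Isopentenyltransferases such as IPT8 carry out the entry step of cytokinin synthesis by adding an isopentenyl side chain to an adenine nucleotide. Both hormones act in seed growth, and the endosperm, which nourishes the embryo, carries a doubled maternal and a single paternal genome. Imprinted genes are expressed mainly from the allele of one parent, and in plants they are known mostly from the endosperm.

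For Bur-0×Col-0, 8576779 matches were counted, with 1733892 to 2313110 per lane, and for Col-0×Bur-0 6773239, with 1295748 to 1830948 per lane. Paternal alleles took 4.60% of all matches in Bur-0×Col-0, compared with 6.85% in Col-0×Bur-0. The median matched window held 11 matches over both crosses, and 69730 windows (47.3%) held fewer than 10. Lane 1 of Col-0×Bur-0 stood apart. The variance between its window counts and those of the other lanes of that cross was 7.12 to 8.37 times the sampling variance. For the other pairs of lanes it was 0.99 to 1.26 times. The paternal share of this lane 1 over all windows was 6.24%, against 7.05% to 7.09% in the other lanes of that cross.

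In all 3 genes paternal matches outnumbered maternal ones in both directions of the cross. Over the genes together, 32 of 47 matches (68.1%) were paternal in Bur-0×Col-0, against 49 of 56 (87.5%) in Col-0×Bur-0. The endosperm genomes would give 33.3% paternal matches, the ratio of 2 maternal to 1 paternal that served as null. The summed counts of each gene passed the one-sided exact binomial test against this ratio in both crosses at an unadjusted p of 0.05. Among all single windows, 0.13% passed in this way and 28.8% in the maternal direction, but gene sums are deeper than most windows, and the share over all genes was not analysed here. Because the study chose the genes on these libraries, their calls are not independent evidence of a paternal direction, and the tests compare the reads of 1 library per cross with a fixed ratio. In the diploid embryo, the genomes would give 1 maternal to 1 paternal. The paper expects genes expressed mainly in the embryo to mimic a paternal bias, and it left such genes out of its final list. All 3 genes are on that final list, and the paper names them among genes that an earlier study had predicted to be imprinted. Against 1 maternal to 1 paternal, 0 of the 3 genes passed. The larger p of both crosses, squared (the joint p), was then 0.00533 for YUC10, 0.0228 for TAR1 and 0.041 for IPT8 in the exact binomial test, above the limit of 0.0025.

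**Figure D1:**
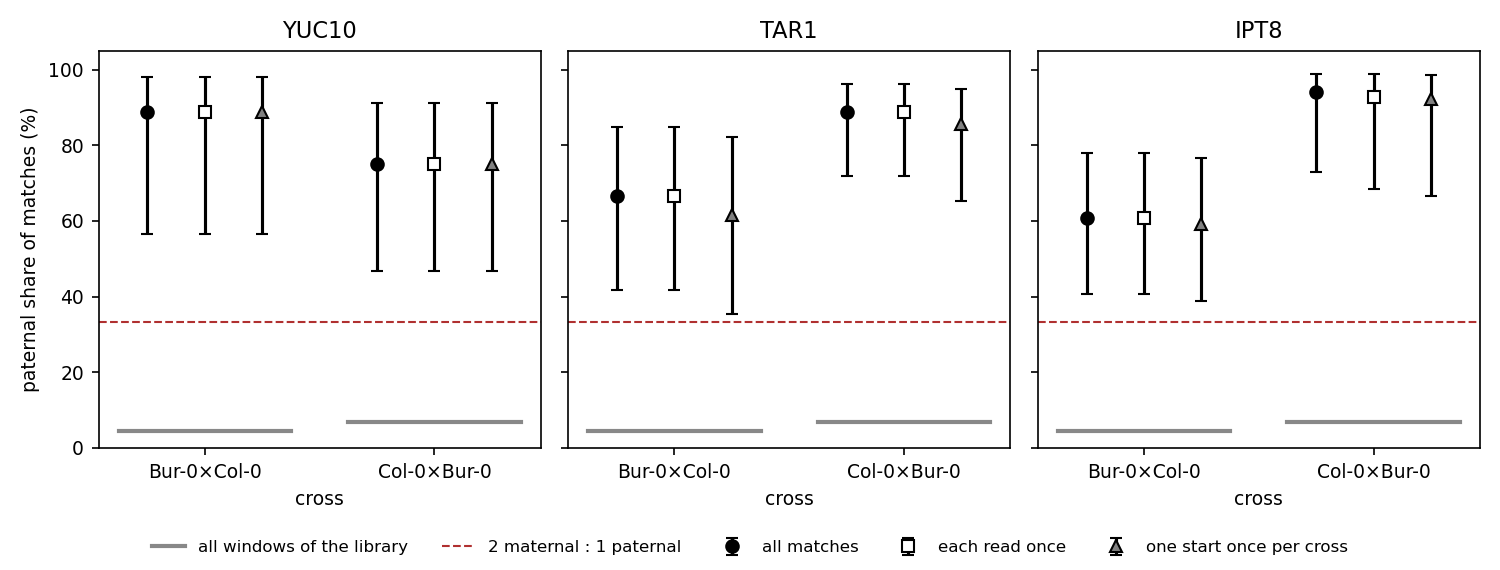
Paternal share of matches (%, vertical axis) of YUC10, TAR1 and IPT8 in Bur-0×Col-0 and Col-0×Bur-0, with all matches, with each read counted once and with each start in the genome counted once per cross. Bars are 95% Wilson intervals, the dashed line is 2 maternal to 1 paternal (33.3%) and the grey lines are the shares over all windows (4.60% and 6.85%), and every interval lies above the dashed line.

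All 3 genes still passed without their window with the most matches. The exact joint p was then 1.69e-05 for YUC10, 0.00149 for TAR1 and 0.000168 for IPT8. Other windows were not left out in turn, so whether a pass rests on 1 of them was not tested. In YUC10, the window left out was balanced between the parents when Bur-0 was the father. Its removal is therefore a weak check for that gene. Of the 27 windows, 0 were called paternal at a limit of 0.05 on the q-value and 0 passed an unadjusted p of 0.05 in both crosses, with a smallest q of 1 in the exact binomial test. Over all windows, 0.0516% were called paternal at that q. Of the 11 member windows matched in both crosses, 7 showed a paternal excess in both, against 0.673% of the 94975 windows matched in both crosses. These 7 were 2 windows of YUC10, 3 of TAR1 and 2 of IPT8. As the study chose the genes on these libraries, this contrast is not independent evidence of a paternal direction. The share over all windows was also not matched to the depth of the member windows. The member windows held between 1 and 13 matches, and a YUC10 window with 2 paternal and 0 maternal matches in each cross reached an exact joint p of only 0.0123. At this depth the lack of calls among single windows says little.

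TAR1, the aminotransferase acting before YUC10 in the pathway, had the most matches of the 3 genes over both crosses, with 42 against 40 for IPT8 and 21 for YUC10. It had 10 paternal and 5 maternal matches in Bur-0×Col-0, against 24 paternal and 3 maternal matches in Col-0×Bur-0. Paternal matches thus made up 66.7% in Bur-0×Col-0 (95% Wilson interval 41.7% to 84.8%, exact one-sided p = 0.0085). In Col-0×Bur-0 it was 88.9% (71.9% to 96.1%, exact one-sided p = 3.26e-09). The joint p, which is the larger p of both crosses squared, was 7.23e-05 in this exact test. The intervals here and for the other genes cover counting error only, since PCR-amplified reads with no molecular identifier cannot be taken as separate molecules.

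The paternal excess of TAR1 was not the same in every lane of Bur-0×Col-0. There, lanes 1 to 4 gave 6, 3, 1 and 0 paternal matches and 1, 3, 1 and 0 maternal matches. Paternal and maternal matches were therefore equal in lanes 2 and 3, and the excess came from lane 1. In Col-0×Bur-0, lanes 1 to 4 gave 7, 8, 6 and 3 paternal and 1, 2, 0 and 0 maternal matches, with a paternal excess in all 4 lanes. Without lane 1 of both crosses, TAR1 had 4 paternal and 4 maternal matches in Bur-0×Col-0 and 17 paternal and 2 maternal matches in Col-0×Bur-0, and its exact joint p of 0.0669 missed the limit of 0.0025 that p = 0.05 in both crosses sets. Without lane 1 of Col-0×Bur-0 only, a setting chosen after seeing the data, the exact joint p of TAR1 stayed at 7.23e-05.

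**Figure D2:**
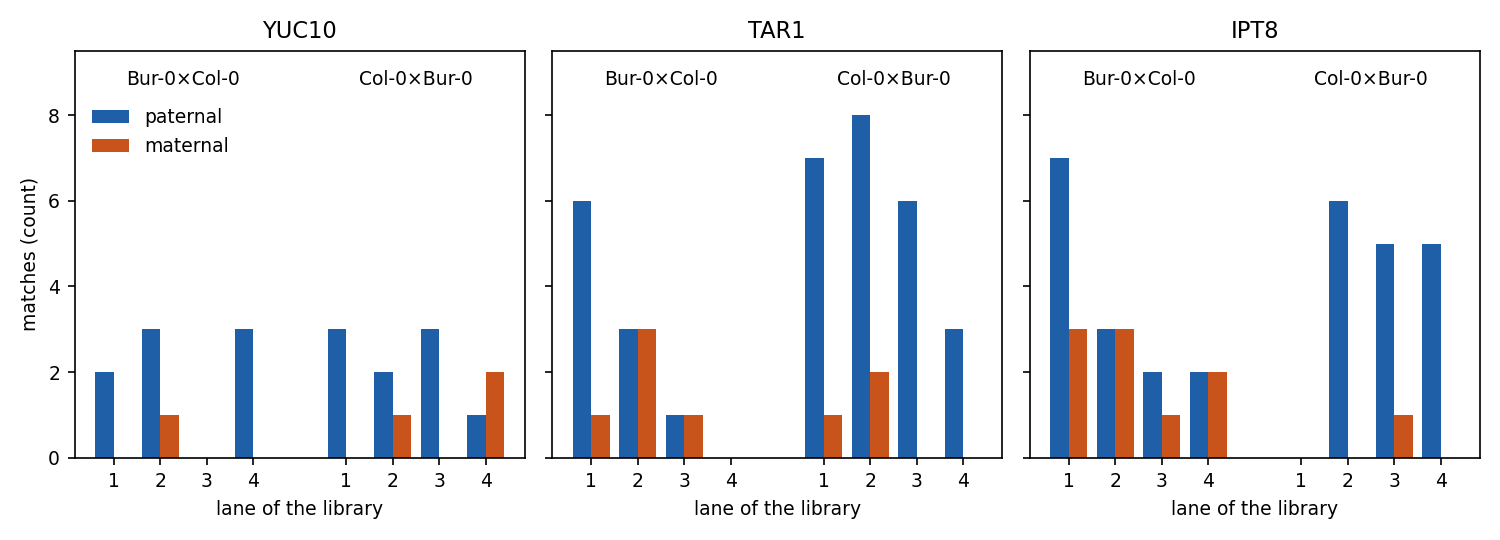
Paternal and maternal matches (count, vertical axis) of YUC10, TAR1 and IPT8 in each of the 4 lanes of the Bur-0×Col-0 and the Col-0×Bur-0 library. Paternal matches exceed maternal ones in most lanes that hold matches, and TAR1 and IPT8 draw most of their excess in Bur-0×Col-0 from lane 1, with 6 against 1 and 7 against 3 matches.

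Along TAR1, the window with the most matches was chr1:8273720-8273790, with 3 paternal and 1 maternal matches in Bur-0×Col-0 and 8 paternal and 1 maternal in Col-0×Bur-0. This window alone gave an exact joint p of 0.0123, short of the limit of 0.0025. At the low-coordinate end of the interval, chr1:8273345-8273415 had 1 paternal match in Bur-0×Col-0, compared with none in Col-0×Bur-0. The window farthest from it, chr1:8275253-8275323, had 1 paternal and 1 maternal match in Bur-0×Col-0 and 6 paternal and 1 maternal in Col-0×Bur-0. The 4 windows matched in Col-0×Bur-0 all had a paternal excess there, whereas in Bur-0×Col-0 4 of 5 windows had one and 1 window was equal. The matches of TAR1 fell on 28 distinct starts, counted by position and orientation, and 23 of these held 1 match. The most used start held 7 matches, of which 2 were paternal and 1 maternal in Bur-0×Col-0 and 3 paternal and 1 maternal in Col-0×Bur-0. It was therefore used by both alleles and in both libraries.

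YUC10, the flavin monooxygenase that releases auxin, had the fewest matches. It had 8 paternal matches and 1 maternal match in Bur-0×Col-0, against 9 paternal and 3 maternal matches in Col-0×Bur-0. Its paternal share came to 88.9% in Bur-0×Col-0 (95% Wilson interval 56.5% to 98.0%, exact one-sided p = 0.000965) and 75.0% in Col-0×Bur-0 (46.8% to 91.1%, exact one-sided p = 0.00386). The exact joint p was 1.49e-05.

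The matches of YUC10 were spread widely over lanes and positions. In Bur-0×Col-0, lanes 1 to 4 gave 2, 3, 0 and 3 paternal and 0, 1, 0 and 0 maternal matches. Every lane of that cross with a match thus had a paternal excess. In Col-0×Bur-0, lanes 1 to 4 gave 3, 2, 3 and 1 paternal and 0, 1, 0 and 2 maternal matches, so that lane 4 had a maternal excess and the other lanes a paternal one. All 21 matches of YUC10 had starts of their own, so none repeated a position and orientation. YUC10 stayed within the limit of 0.0025 without any 1 lane of both crosses, with exact joint p-values of 6.86e-05 to 0.0018.

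Along YUC10, the maternal matches lay in the 2 windows of lower coordinate. The window chr1:18095349-18095419 had 2 paternal and 0 maternal matches in Bur-0×Col-0, compared with 1 of each in Col-0×Bur-0. Next to it, chr1:18095603-18095673 had 3 paternal and 1 maternal matches in Bur-0×Col-0, compared with 2 of each in Col-0×Bur-0. The 2 windows of higher coordinate held no maternal match in either cross. Of these, chr1:18096353-18096423 had 2 paternal matches in each cross, and chr1:18097051-18097121 had 1 paternal match in Bur-0×Col-0, compared with 4 in Col-0×Bur-0. The windows held 4 to 8 matches each, and differences between them were not tested.

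**Figure D3:**
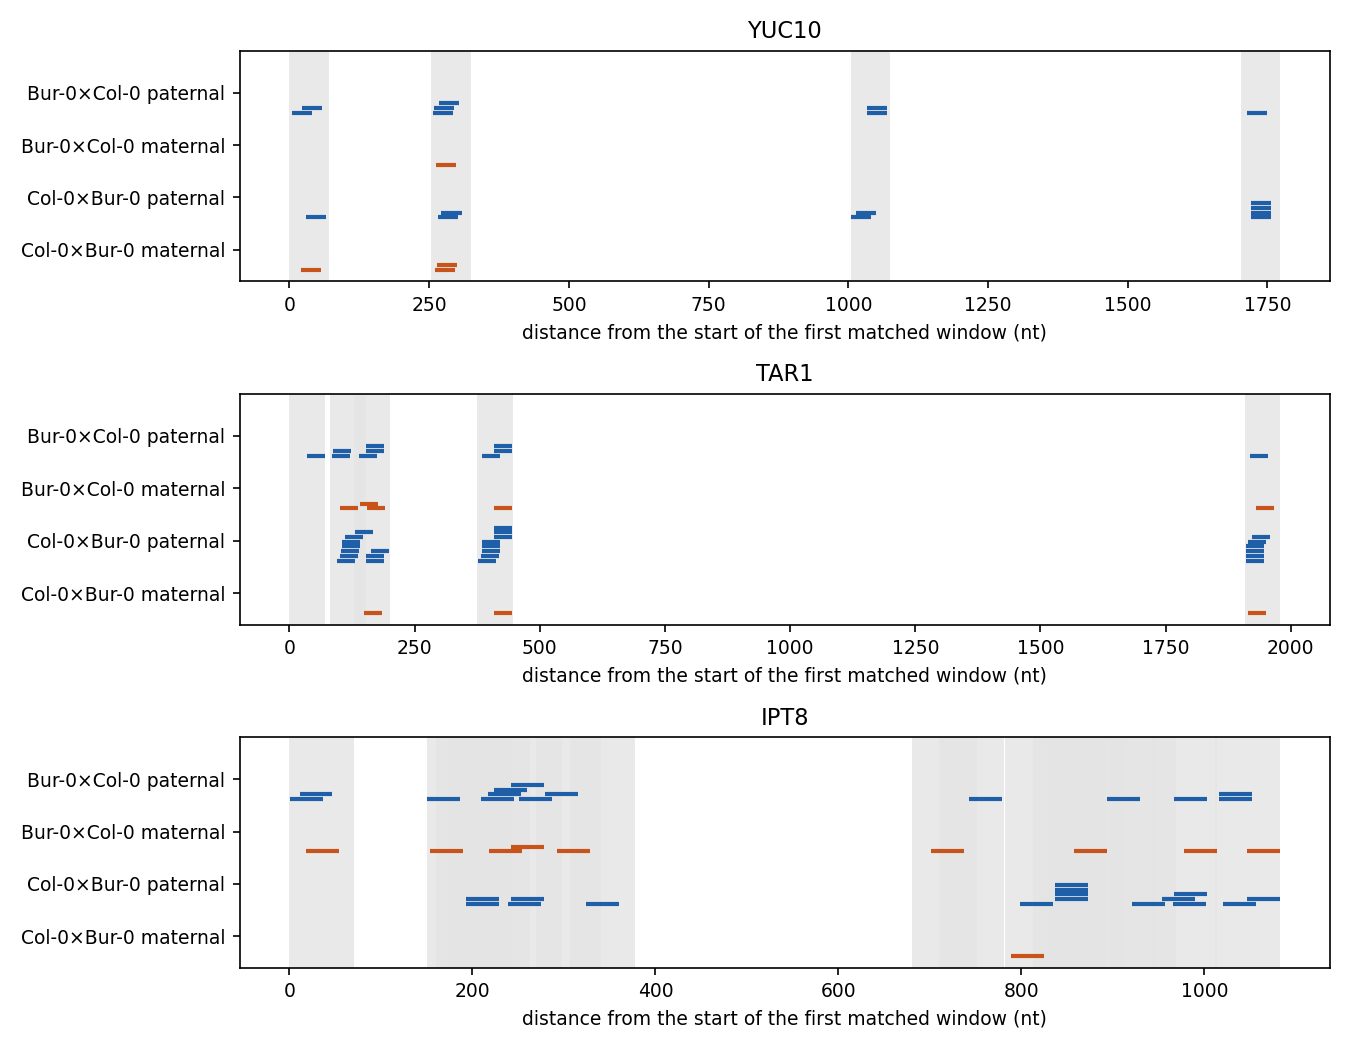
Position of every match in YUC10, TAR1 and IPT8, with the distance from the start of the first matched window (nt) on the horizontal axis and a row for each parent and cross. Blue lines are paternal and orange lines maternal 36-nt matches, grey bands are the 71-nt windows, and matches at 1 start and orientation lie above each other (7 over both crosses at the most used start of TAR1, 1 at each start of YUC10).

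IPT8, the cytokinin synthesis gene, had the shallowest windows, with 1 to 5 matches in each. It had 14 paternal and 9 maternal matches in Bur-0×Col-0, against 16 paternal and 1 maternal match in Col-0×Bur-0. This gave a paternal share of 60.9% in Bur-0×Col-0 (95% Wilson interval 40.8% to 77.8%, exact one-sided p = 0.00619) and 94.1% in Col-0×Bur-0 (73.0% to 99.0%, exact one-sided p = 2.71e-07). The exact joint p was 3.83e-05.

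The call of IPT8 also depended on lane 1 of Bur-0×Col-0. In Bur-0×Col-0, lanes 1 to 4 gave 7, 3, 2 and 2 paternal and 3, 3, 1 and 2 maternal matches. Lanes 1 and 3 had a paternal excess there and lanes 2 and 4 had equal numbers. In Col-0×Bur-0, lanes 1 to 4 gave 0, 6, 5 and 5 paternal and 0, 0, 1 and 0 maternal matches, so that lane 1, whose window counts stood apart, held no match of IPT8. Without lane 1 of both crosses, IPT8 had 7 paternal and 6 maternal matches in Bur-0×Col-0 and 16 paternal and 1 maternal match in Col-0×Bur-0, and its exact joint p of 0.0107 missed the limit of 0.0025. Without lane 1 of Col-0×Bur-0 only, a setting chosen after seeing the data, the exact joint p of IPT8 stayed at 3.83e-05.

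The 18 windows of IPT8 were seldom matched in both crosses. In Bur-0×Col-0, 11 windows were matched, of which 6 had a paternal excess, 2 a maternal excess and 3 equal numbers. In Col-0×Bur-0, 10 windows were matched, of which 9 had a paternal excess and 1 equal numbers. The 3 windows matched in both crosses, each with 5 matches, held 1 or 2 paternal and 1 maternal match in Bur-0×Col-0 and 2 or 3 paternal and 0 maternal matches in Col-0×Bur-0. The 40 matches fell on 32 distinct starts in the genome, of which 27 held 1 match, and at most 4 matches, all paternal and in Col-0×Bur-0, shared a start. In Col-0×Bur-0, 3 reads had been matched in 2 overlapping windows each, so that the 17 matches came from 14 reads, of which 13 were paternal.

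SNPs lie close together in IPT8, and this was the only one of the 3 genes with windows that had another matched window centre within 35 nt, as 13 of its 18 windows did. Each Bur-0 window had been given the Bur-0 base at its central SNP alone, so a Bur-0 read that covers a neighbouring SNP differs from it there. Matches of either allele also had to be unique among the windows. Over all windows, the 61655 with such a neighbour had a paternal share of 1.93% in Bur-0×Col-0, against 11.5% in Col-0×Bur-0, and the 85694 without one had 6.61% in Bur-0×Col-0, compared with 5.20% in Col-0×Bur-0. These sums weigh windows by their matches. Among windows that reached 10 matches in both crosses, the median paternal share was 0% with a neighbour and 2.0% without one in Bur-0×Col-0, and 2.78% with and 1.52% without one in Col-0×Bur-0. The Col-0 allele thus had a lower share in windows with a neighbour, in both libraries and by both measures. The Bur-0 allele had a higher share there, not a lower one, and the cause was not tested. Within IPT8, windows with a neighbour held 13 matches in Bur-0×Col-0, 8 of them paternal (61.5%), and 11 in Col-0×Bur-0, 10 of them paternal (90.9%). In the 5 windows without a neighbour, 6 of 10 matches (60.0%) were paternal in Bur-0×Col-0, compared with 6 of 6 (100%) in Col-0×Bur-0, and on these alone the exact joint p of 0.00586 missed the limit of 0.0025.

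The paternal share was then compared between the crosses, which asks whether the bias depended on which accession was the father. IPT8 had a lower paternal share in Bur-0×Col-0, by a difference of -33.2 percentage points (95% Newcombe interval -53.9 to -6.17), with a two-sided Fisher's exact p of 0.0257. After Benjamini-Hochberg adjustment over 47714 tests this p was 0.197, so the difference did not pass. Of all 47712 windows that reached 10 matches in both crosses, 10.2% differed between the crosses at an adjusted p of 0.05 and 15.2% at an unadjusted one in the same exact test. With each read counted once the exact p of IPT8 was 0.0559, and without lane 2 or lane 4 of both crosses it was 0.191 and 0.108.

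TAR1 also had a lower paternal share in Bur-0×Col-0, by a difference of -22.2 percentage points (-48.2 to 2.61), a difference that did not pass the two-sided Fisher's exact test (p = 0.11, adjusted p = 0.569). Without lane 1 of both crosses the unadjusted exact p of TAR1 was 0.0441. YUC10 ran the other way, with a share higher by 13.9 points in Bur-0×Col-0 (-22.3 to 43.6, exact p = 0.603), and had too few matches to enter the adjusted family. For TAR1 and YUC10 the intervals include 0 but leave room for large differences in either gene.

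Because the same accession was father in one cross and mother in the other, each allele can also be compared with itself. The Bur-0 allele of YUC10 had 9 matches as paternal allele and 1 as maternal allele, a ratio of 9.0 (exact 95% interval 1.25 to 394). Its Col-0 allele had 8 paternal and 3 maternal matches, a ratio of 2.67 (0.640 to 15.6). For TAR1 the ratio was 4.8 for the Bur-0 allele (24 paternal, 5 maternal, 1.80 to 16.1) and 3.33 for the Col-0 allele (10 paternal, 3 maternal, 0.858 to 18.8). Both alleles of the auxin genes thus had more matches when inherited from the father, although the interval of each Col-0 ratio includes 1.

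In IPT8 the ratios ran the other way, higher for Col-0. Its Col-0 allele had 14 paternal matches and 1 maternal match, a ratio of 14.0 (exact 95% interval 2.13 to 592), and its Bur-0 allele had 16 paternal and 9 maternal matches, a ratio of 1.78 (0.740 to 4.56). Scaled to the total matches of each library, the ratios were 11.1 for Col-0 and 2.25 for Bur-0 in IPT8, 2.63 and 6.08 in TAR1, and 2.11 and 11.4 in YUC10. The order of the accessions was the same with and without scaling in each gene. These ratios join 1 library of each cross and were not tested.

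All 3 genes were weakly represented. Per 1000000 matches of the library, TAR1 had 1.75 matches in Bur-0×Col-0 (exact 95% Poisson interval 0.979 to 2.88) and 3.99 in Col-0×Bur-0 (2.63 to 5.80). IPT8 had 2.68 (1.70 to 4.02) in Bur-0×Col-0, against 2.51 (1.46 to 4.02) in Col-0×Bur-0. YUC10 had 1.05 (0.480 to 1.99) in Bur-0×Col-0, compared with 1.77 (0.915 to 3.09) in Col-0×Bur-0. The intervals of the crosses overlap in each gene, in TAR1 only from 2.63 to 2.88. Overlap does not show equal levels, and differences in level were not tested. On the same scale, paternal matches of TAR1 were at 1.17 in Bur-0×Col-0, compared with 3.54 in Col-0×Bur-0, and its maternal matches at 0.583 in Bur-0×Col-0, compared with 0.443 in Col-0×Bur-0. The levels of different genes cannot be ordered from these values, since the genes hold different numbers of SNPs.

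The windows beside the genes were counted as well. Within 10000 nt of either end of the intervals lay 50 matched windows at YUC10, 15 at TAR1 and 22 at IPT8, and 0 of these had a paternal excess in both crosses. Such an excess was rare everywhere, at 0.673% of all windows matched in both crosses, so 0 is near the usual share. Some of the windows beside the genes were matched in 1 cross only and could not show it. Among windows that reached 10 matches in both crosses, the 16 beside YUC10 had paternal shares of 0% to 33.1% (median 8.39%) in Bur-0×Col-0, against 0% to 57.9% (median 10.5%) in Col-0×Bur-0. The 6 beside TAR1 had 0% to 18.3% (median 2.61%) in Bur-0×Col-0, compared with 0% to 5.26% (median 0.920%) in Col-0×Bur-0. The 16 beside IPT8 had 0% to 52.9% (median 5.39%) in Bur-0×Col-0, against 0% to 54.5% (median 3.81%) in Col-0×Bur-0. The medians of these deeper windows beside the 3 genes thus lay below 33.3%, whereas the genes themselves lay above it. With shallower windows included, the 22 below YUC10 summed to 248 paternal and 455 maternal matches in Bur-0×Col-0 (35.3% paternal), of which 1 window held 217 paternal matches, and to 21 paternal and 543 maternal matches in Col-0×Bur-0 (3.72%).

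**Figure D4:**
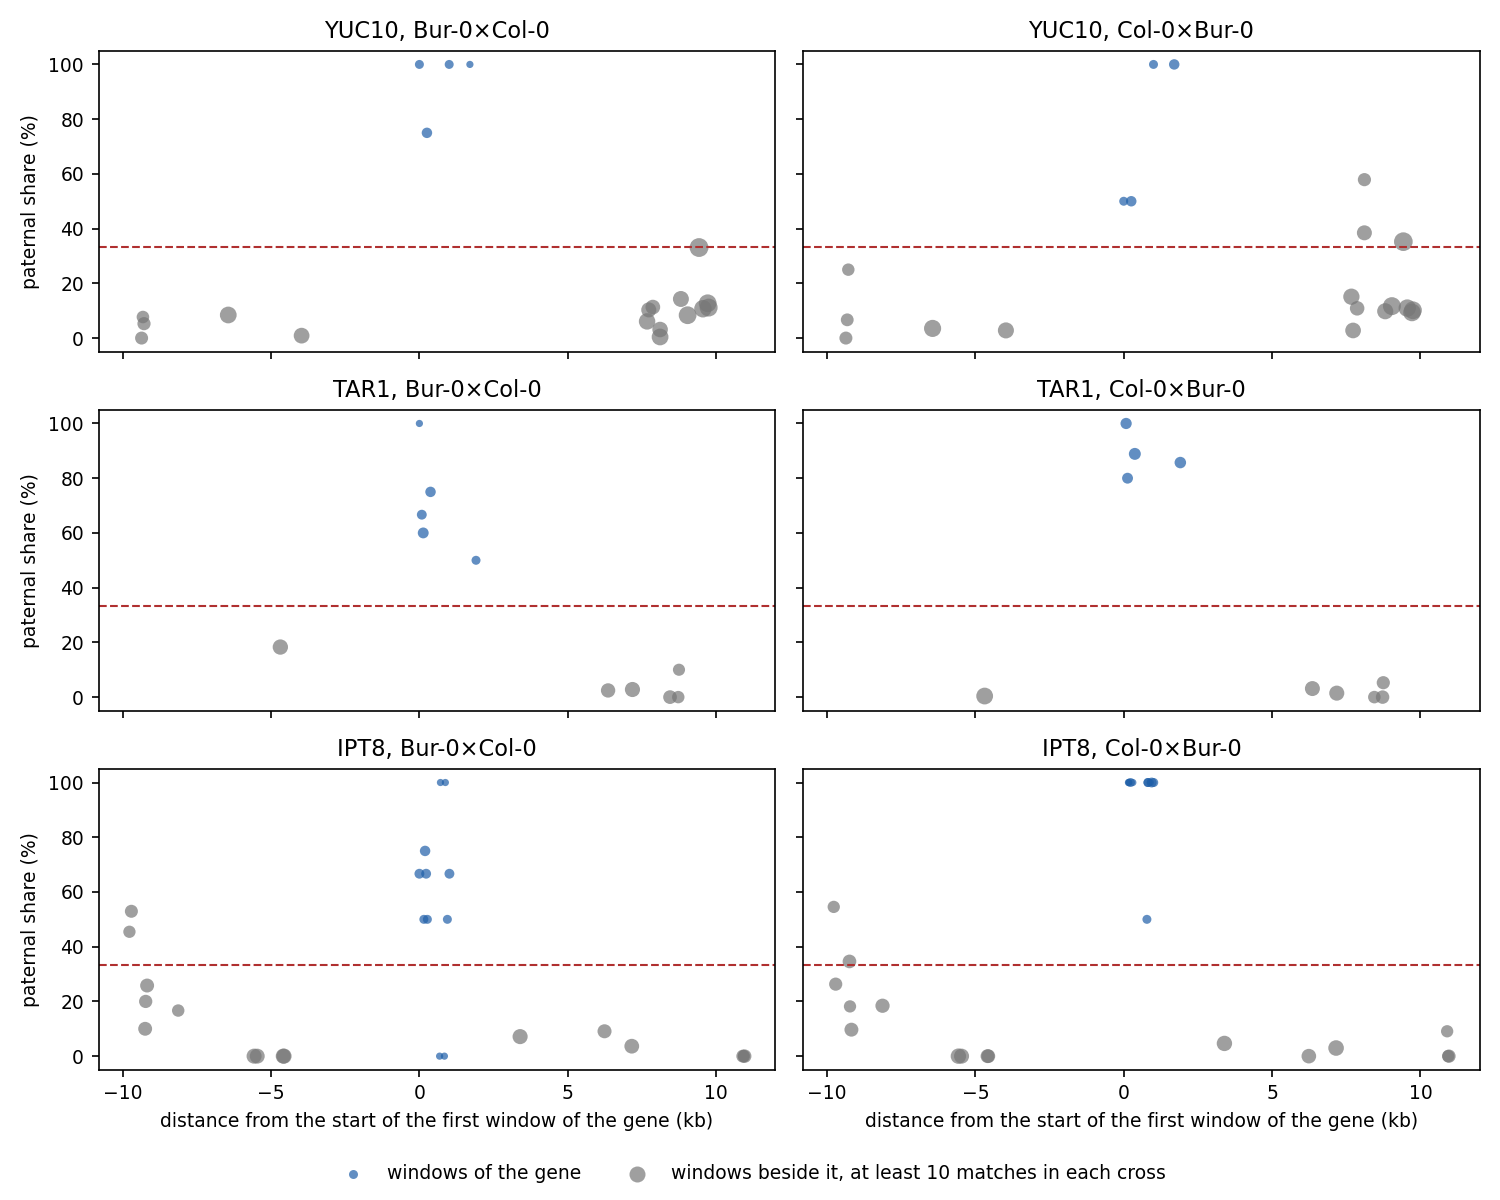
Paternal share (%, vertical axis) of single windows in and beside YUC10, TAR1 and IPT8, with the distance from the start of the gene's first window (kb) on the horizontal axis, Bur-0×Col-0 on the left and Col-0×Bur-0 on the right. Blue points are windows of the gene, grey points are windows beside it that reached 10 matches in both crosses, point size grows with the number of matches, and the dashed line is 33.3%. In 0 of the windows beside the genes does the paternal share exceed the maternal one in both crosses, against 0.673% of all windows matched in both crosses.

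The nearest windows of that depth were far more often matched than the genes themselves. Below TAR1, a window 4616 nt away had 15 paternal and 67 maternal matches in Bur-0×Col-0 and 1 paternal and 255 maternal in Col-0×Bur-0. Above TAR1, a window 4381 nt away had 1 paternal and 40 maternal matches in Bur-0×Col-0 and 2 paternal and 62 maternal in Col-0×Bur-0. Both windows were thus maternal in both crosses. Below YUC10, a window 3900 nt away had 1 paternal and 112 maternal matches in Bur-0×Col-0 and 4 paternal and 139 maternal in Col-0×Bur-0. Above YUC10, a window 5901 nt away had 12 paternal and 185 maternal in Bur-0×Col-0 and 26 paternal and 146 maternal in Col-0×Bur-0. The auxin gene between them, with its 17 paternal and 4 maternal matches over both crosses, differed from both in direction. Below IPT8, a window 4492 nt away had 0 paternal and 71 maternal matches in Bur-0×Col-0 and 0 paternal and 27 maternal in Col-0×Bur-0. A window 2312 nt above IPT8 had 5 paternal and 65 maternal matches in Bur-0×Col-0 and 4 paternal and 82 maternal in Col-0×Bur-0. Both of these windows around the cytokinin gene were therefore maternal as well. Maternal alleles took most matches of both libraries, so this direction was the usual one. In the gene order of TAIR10.1, TAR1 lies between GGT1 and AT1G23330, YUC10 between AT1G48900 and AT1G48912, and IPT8 between KRP6 and PREP1, but the windows beside the genes were not assigned to these neighbours here.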

How the data were processed

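RNA-Seq of F1 seeds was analysed in 1 library per cross. The authors matched 36-nt reads with vmatch to 71-nt TAIR8 windows around Bur-0 SNPs (569797 in the index), each made once with the Col-0 and once with the Bur-0 base, and allowed up to 2 mismatches. They deposited 1 line per match that was unique among the windows, with its window, position, orientation and read name, and without counts or normalization. Matches were counted here per window, allele and cross, with 4 lanes summed. Files with a number in their name were taken as lanes 1 to 3 and the other as lane 4.

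The genes named are the 3 members, and they and the lists were chosen with earlier results of these data known. Paternal matches were tested against 2 maternal to 1 paternal in a one-sided exact binomial test per cross, and the larger p was squared. The q-value was this joint p times the number of tests over its rank. A gene counted as passing at p of 0.05 or less in both crosses, which is a joint p of at most 0.0025. Crosses were compared with a two-sided Fisher's exact test, adjusted over 47712 windows and 2 genes with at least 10 matches in each cross. Shares have 95% Wilson intervals. The tests were checked on simulated binomial counts. A bias was set there only in windows with more matches than any single window of the 3 genes held, so the check does not cover such shallow windows. The alternatives changed how matches are counted, the windows, the lanes, the squaring of p and the null ratio. Scripts ran in Python 3.11.15 with SciPy 1.17.1, pandas 2.3.3, Matplotlib 3.10.9 and NumPy 2.4.6. Tests over all genes, the other genes of both pathways, cell type markers, genes of like pattern and sequences need a TAIR8 genome with annotation and were not analysed here. Gene symbols and gene order are those of TAIR10.1.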

Additional observations from a re-analysis of the deposited data

Results flagged for a closer look

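IPT8 drew attention because its paternal share differed between the directions of the cross at an unadjusted two-sided Fisher's exact p of 0.0257. It had 14 paternal and 9 maternal matches in Bur-0×Col-0, against 16 paternal and 1 maternal match in Col-0×Bur-0. The adjusted p over 47714 tests was 0.197, so the difference fails the correction. It compares the reads of 1 library per cross and has no replicate check.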

How the results depend on the processing

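No paired analysis was possible because each cross had 1 library and the labels carry no replicate numbers. The limits named here are an exact joint p of 0.0025 for the paternal bias of a gene and an exact p of 0.05 for the difference between crosses. YUC10, TAR1 and IPT8 kept a larger paternal share than the null in both crosses under every setting run. Against 1 maternal to 1 paternal, the exact joint p was 0.00533 for YUC10, 0.0228 for TAR1 and 0.041 for IPT8, and 0 of 3 genes passed. With only the window with the most matches it was 0.166 for YUC10, 0.0123 for TAR1 and 0.0672 for IPT8, and again 0 of 3 passed. Without lane 1 of both crosses it was 0.0669 for TAR1 and 0.0107 for IPT8, and 1 gene passed, whereas all 3 passed without lane 1 of Col-0×Bur-0 only, a setting chosen after seeing the data. Leaving out 1 lane at a time gave 1 to 3 passing genes. Without windows that have a neighbour within 35 nt, IPT8 had a joint p of 0.00586.

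The difference of IPT8 between crosses had an exact p of 0.0562 with each start of a window counted once per lane. In settings chosen after seeing the data, it was 0.0559 with each read counted once, 0.0596 with each start in the genome counted once per lane, 0.0548 with each counted once per cross, and 0.234 without windows that have a neighbour within 35 nt. Leaving out 1 lane of both crosses gave 0.0247 to 0.191 for IPT8, with 0.191 without lane 2 and 0.108 without lane 4, and 0.0441 without lane 1 to 0.387 without lane 3 for TAR1. Over all windows, 76 were called paternal, against 87 with each start of a window counted once per lane, 44 with at least 10 matches in each cross, 25 with the larger p not squared, 18 against 1 maternal to 1 paternal, and 50 to 57 without 1 lane, with 50 both without lane 1 and without lane 2. The same-accession ratios stayed within their intervals in the 2 alternatives run for each. Causes of these changes were not tested, and fewer lanes or windows also leave smaller counts.

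Restricting matches to reads with the named base at the SNP, and all alternatives over all genes, were not run. IPT8 gives no value without windows that have a neighbour within 70 nt in both crosses. Depth limits these results, since the 27 windows of the 3 genes held 103 matches.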

Other observations

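Windows beside YUC10 held matches of nearly a single accession. Above it, the 5 windows between chr1:18097629 and chr1:18098672 had 0 paternal and 6 maternal matches in Bur-0×Col-0 and 10 paternal and 1 maternal match in Col-0×Bur-0, so the Bur-0 allele took nearly all of them in both crosses. Below it, the window that starts at chr1:18092371 had 217 matches of the paternal Col-0 allele in Bur-0×Col-0, on 12 starts and in 4 lanes, and none of the Bur-0 allele in that cross or of either allele in Col-0×Bur-0. The overlapping window that starts at chr1:18092385 had 6 matches, also of the Col-0 allele in Bur-0×Col-0 alone. Such windows are not counted in the interval of YUC10.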
